A study of Homo sapiens with 24 samples.

Results

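Fatty acid desaturases and elongases, the enzymes that place double bonds in fatty acids and lengthen them, were followed in mRNA-seq data of SKBR3 cells (SKBr3 in the labels), an established human breast cancer line with ERBB2 amplification. The group was defined by name as the rows of the read-count table for SCD, FADS1, FADS2, FADS3, ELOVL1, ELOVL5, ELOVL6, and ELOVL7, and all 8 were found among 14493 genes and passed the filter on low counts in every comparison. The data comprised 24 libraries in 8 groups of 3 replicates. ND-646, an inhibitor of acetyl-CoA carboxylase (ACC), and TVB-3166, an inhibitor of fatty acid synthase (FASN), were each given at 250 nmol/L, alisertib, an Aurora A kinase inhibitor, at 500 nmol/L, and the DNA-damaging drug doxorubicin at 10 nmol/L. Bleomycin, which breaks DNA, was given at 10 μmol/L, and palbociclib (Palboclib in the labels), which blocks the cell cycle kinases CDK4 and CDK6, at 1 μmol/L. All treated cells received drug again on day 3 (refeed in the labels) and were collected on day 7. Untreated proliferating cells were collected on day 0 and day 7, with no refeed named in their labels. The study used these drugs to bring about therapy-induced senescence (TIS), a growth arrest that need not be permanent. It asked how arrest under blocked fatty acid synthesis differs from the other forms.

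ACC and FASN make palmitate, the saturated product of de novo synthesis. SCD, stearoyl-CoA desaturase, puts the first double bond into palmitate and stearate and yields palmitoleate and oleate, the monounsaturated acids of membrane lipids and triglycerides. FADS2 and FADS1 act on polyunsaturated acids from the diet, FADS2 at the entry step and FADS1 at the later step that gives arachidonate, and FADS3 acts on sphingoid bases. The ELOVL enzymes add carbon units, ELOVL6 to palmitate, ELOVL5 to polyunsaturated chains, ELOVL1 to the very long saturated chains of sphingolipids, and ELOVL7 to long saturated chains. Transcription of SCD, FADS1, FADS2, ELOVL5, and ELOVL6 is known to be driven by the sterol regulatory element-binding proteins (SREBPs), and that of SCD also by the liver X receptors (LXRs).

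Total counts per library ranged from 29405121 to 44316330. The listed markers of the line, among them ERBB2 and KRT8, were present (7 of 7, summed level 12586 to 22349 CPM, read counts scaled to a common library size with the TMM method), whereas 3 of 10 markers of fibroblasts, leukocytes, and endothelium were listed in the table (summed level 17.3 to 66.7 CPM). That sum was 50.04 to 63.7 CPM in ND-646, 35.7 to 41.4 CPM in TVB-3166, 43.6 to 66.7 CPM in bleomycin, and 17.3 to 21.5 CPM in the other 5 groups, and CD68, a lysosomal membrane protein of macrophages that other cells also make, carried most of the ND-646 level (46.7 CPM) and was at 5.62 CPM in day-7 cells. PTPRC, LYZ, PECAM1, COL1A2, COL3A1, DCN, and LUM were not listed. The part of these markers in the results below was not tested. Day-0 replicate 1 stood apart, with 1042 CPM of SCD against 2416 and 2289.9 CPM in day-0 replicates 2 and 3, and 2.75 CPM of FADS2 against 17.1 and 7.90 CPM. Results against day-0 cells are therefore also given without it. The labels do not say that replicates came from separate cultures. The methods speak of independent experiments for cell-based observations in general, without naming the RNA sequencing. The p-values therefore measure the spread between these libraries, which may be technical. All comparisons with a given untreated group share its 3 libraries. In a bulk sample, fewer cells of a type and less RNA per cell cannot be told apart.

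Per kilobase of exon, SCD was the most abundant of the 8 transcripts in every group, at 365 ± 145 CPM per kb (SD, n = 3) in day-0 cells, 805 ± 129 in day-7 cells, 2425 ± 318 in ND-646 cells, and 2517 ± 301 in TVB-3166 cells. SCD made up 56.2% ± 12.2 of the length-scaled level of the 8 genes in day-0 cells, 76.0% ± 2.6 in day-7 cells, 87.6% ± 0.58 in ND-646 cells, and 89.2% ± 0.58 in TVB-3166 cells. ELOVL1 and ELOVL5 came next, from 109 to 141 and from 87.0 to 142 CPM per kb across group means. ELOVL6 (9.09 to 20.8), FADS2 (2.99 to 41.0), FADS3 (5.56 to 15.1), and ELOVL7 (2.27 to 3.82) followed, and FADS1 was lowest at 0.304 to 1.02 CPM per kb. The plot of length-scaled levels shows that FADS2 moved across this order: its mean lay below that of FADS3 in day-0, bleomycin, doxorubicin, and palbociclib cells and above that of ELOVL6 in ND-646 and TVB-3166 cells.

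**Figure D1:**
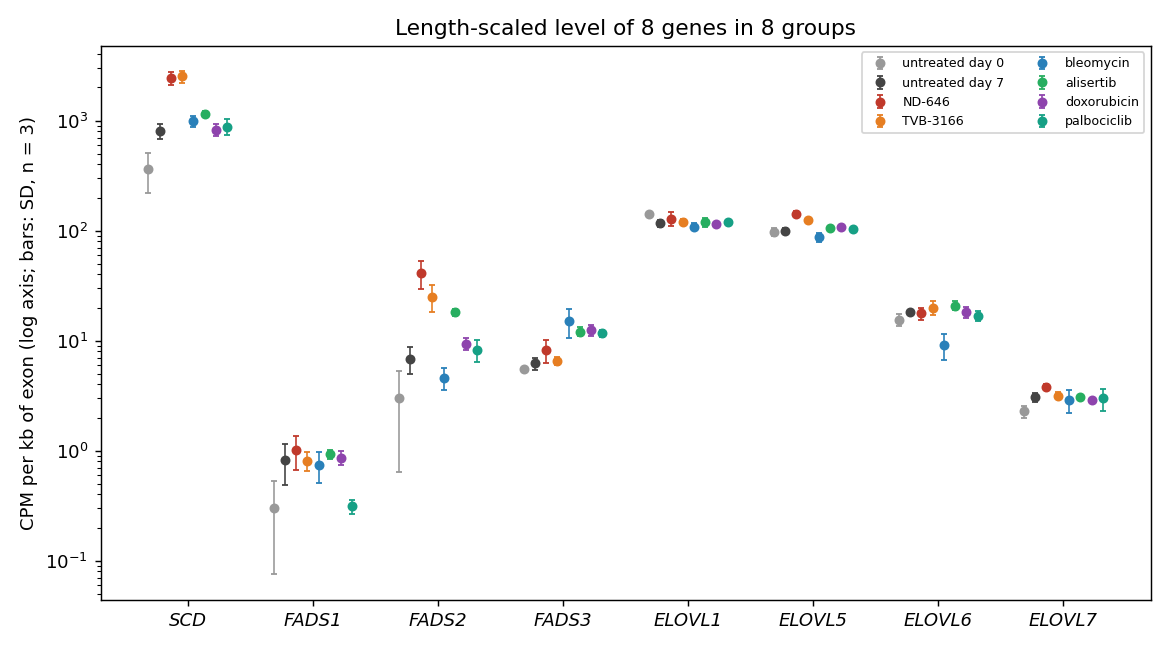
Mean level of each gene in CPM per kb of exon (log axis) in the 8 groups, with bars of 1 SD over 3 libraries. SCD lies above the other 7 genes in every group, FADS1 lies lowest, and FADS2 spans 2.99 to 41.0 CPM per kb.

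Untreated day-7 cells, grown for the same time, are the closer reference for the treated groups. The labels name a refeed on day 3 for every treated group and none for these cells. Whether they received fresh medium is not given, so drug and refeed cannot be told apart in these comparisons. Genes were called with edgeR's quasi-likelihood test at a Benjamini-Hochberg adjusted p-value under 0.05 over all genes tested. In ND-646 cells 3 of the 8 genes rose and 0 fell relative to day-7 cells, where 17.2% of all tested genes rose and 17.1% fell. In TVB-3166 cells the count was again 3 higher and 0 lower, against 25.4% and 26.1% of all genes. In both groups the 3 were SCD, FADS2, and ELOVL5. Alisertib cells had 3 higher (SCD, FADS2, and FADS3) and 0 lower, against 9.55% and 9.49% of all genes. Doxorubicin cells had 2 higher (FADS2 and FADS3) and 0 lower, against 21.9% and 21.5%. In bleomycin cells 1 rose (FADS3) and 1 fell (ELOVL6), against 22.4% and 23.2%, and in palbociclib cells 1 rose (FADS3) and 1 fell (FADS1), against 22.0% and 22.9%. Counted in either direction, the called share of the 8 lay above that of all genes in alisertib cells and near it in ND-646 cells. It lay below that of all genes in TVB-3166, doxorubicin, bleomycin, and palbociclib cells. The median log2 fold-change of the 8 genes was 0.36 in ND-646 cells, 0.11 in TVB-3166 cells, 0.21 in alisertib cells, 0.08 in doxorubicin cells, 0.06 in palbociclib cells, and -0.11 in bleomycin cells, while that of all genes lay between 0.00 and 0.02 in the 6 comparisons.

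**Figure D2:**
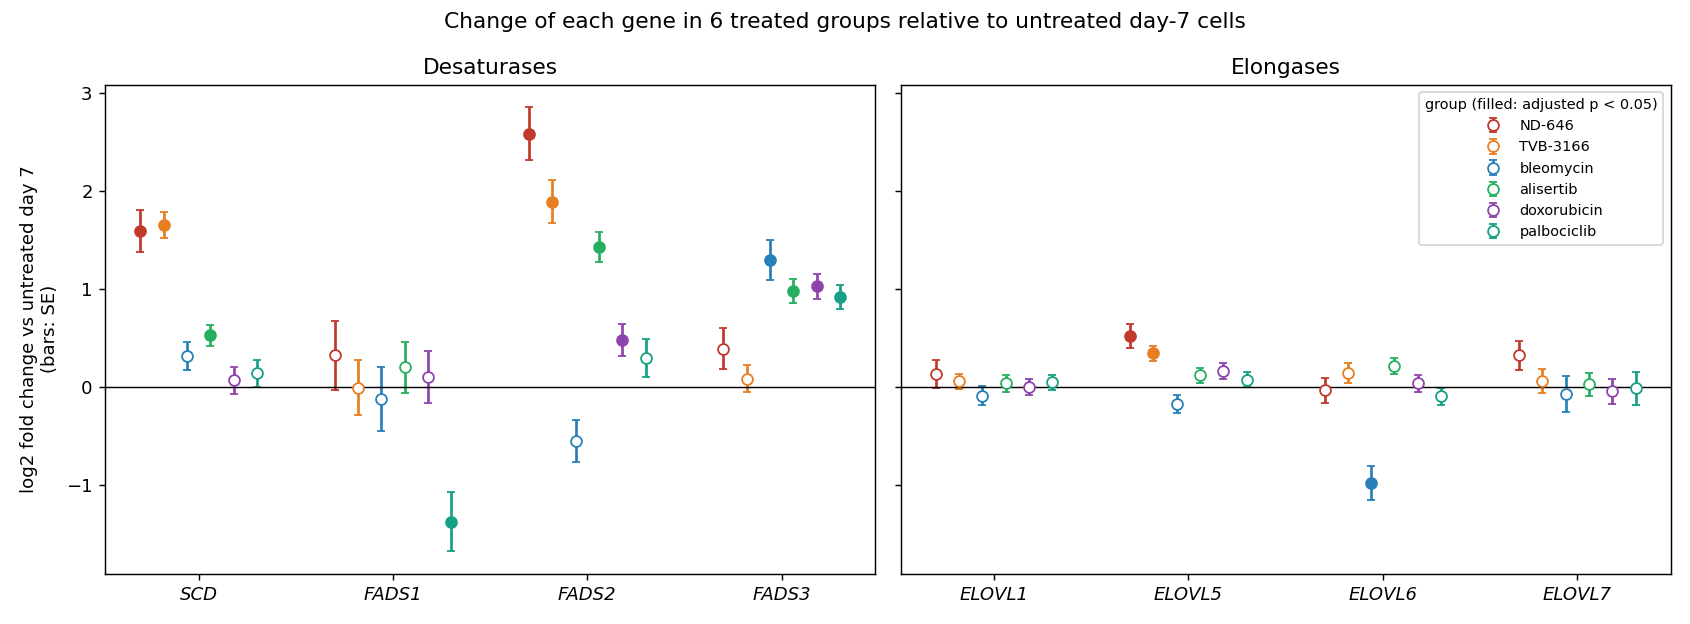
Log2 fold-change of each gene in the 6 treated groups relative to untreated day-7 cells (bars are the SE of the fit, and filled points passed an adjusted p-value of 0.05). SCD and ELOVL5 points of ND-646 and TVB-3166 cells lie above those of the other 4 groups, and the order is turned for FADS3, where the other 4 groups lie higher.

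The direct test of the pair of lipogenesis inhibitors against the other 4 TIS inducers was made in a fit of all 24 libraries. It gave 5 genes higher (SCD, FADS2, ELOVL5, ELOVL6, and ELOVL7) and 1 lower (FADS3), where 26.3% of 14078 genes were higher and 24.7% were lower. In a fit of the 18 treated libraries alone, FADS1 was also called higher (log2 0.48, adjusted p = 0.0148, against 0.0826) and ELOVL7 was not called (0.0548). Relative to the day-0 cells, 5 of the 8 rose and 0 fell in ND-646 cells (19.1% and 18.8% of all genes) and 6 rose and 0 fell in TVB-3166 cells (27.4% and 27.7%). The day-0 counts were 2 higher and 2 lower in bleomycin cells (24.1% and 25.3%), 6 and 0 in alisertib cells (17.7% and 19.6%), 4 and 1 in doxorubicin cells (23.7% and 24.8%), and 3 and 1 in palbociclib cells (26.0% and 27.2%). Without day-0 replicate 1, the number of the 8 called in either direction was 4 in ND-646 (27.9% of all genes), 5 in TVB-3166 (54.3%), 4 in bleomycin (44.9%), 5 in alisertib (37.5%), 5 in doxorubicin (48.4%), and 3 in palbociclib cells (51.0%). Without that library, the bleomycin, TVB-3166, and palbociclib shares of the 8 genes lay close to or below that of all genes. With all day-0 libraries, this held for bleomycin and palbociclib cells. Between the untreated groups 0 of the 8 passed edgeR's adjusted threshold, with 0.389% of all genes higher and 0.198% lower on day 7. At an unadjusted p-value under 0.05 there were 5 of the 8, and DESeq2 called 2. TVB-3166 and ND-646 cells did not differ in any of the 8 by edgeR's adjusted p-value, with 0.520% of all genes higher and 0.198% lower in TVB-3166 cells, and 1 of the 8 had an unadjusted p-value under 0.05 and 0 were called by DESeq2. With the replicate number added to the edgeR fit as a block, FADS2 was called lower in TVB-3166 cells (adjusted p = 0.0311).

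**Figure D3:**
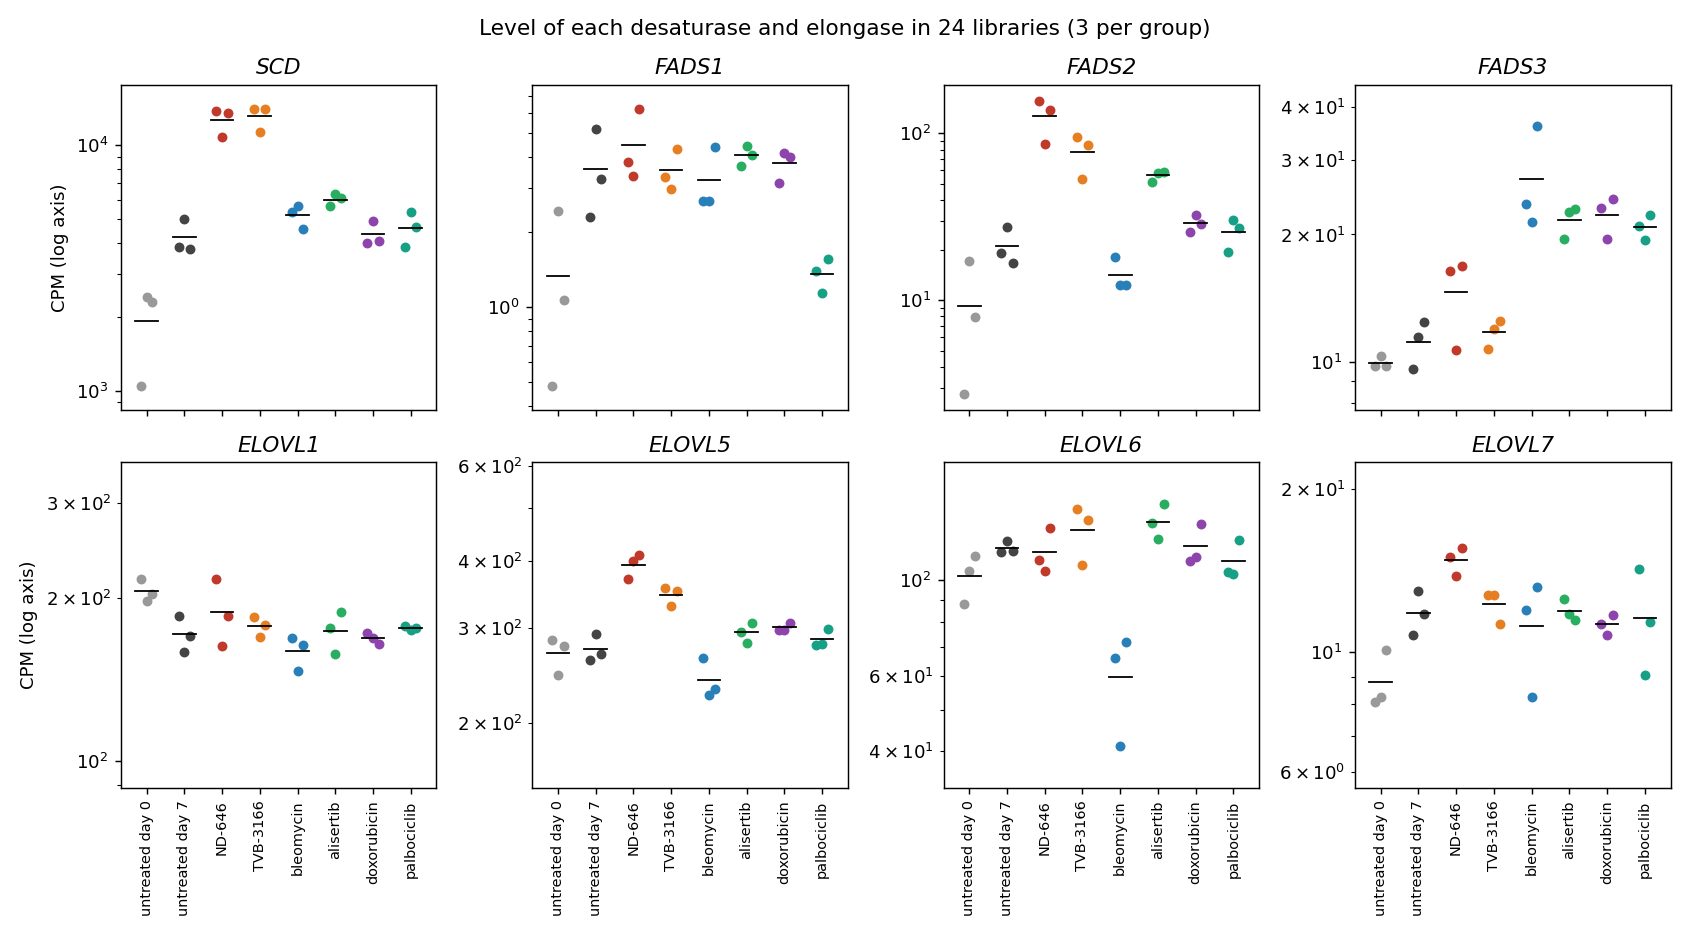
Level of each gene in every library in CPM (log axis, 1 point a library, lines are group means). SCD and FADS2 are highest in ND-646 and TVB-3166 cells, FADS3 is highest in the other 4 treated groups, and ELOVL6 is lowest in bleomycin cells.

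SCD lies on the plus strand of chromosome 10 (GRCh37, chr10:102106990-102124583, 6 exons, NCBI Gene 6319). Its level was 1042, 2416, and 2289.9 CPM in the 3 day-0 libraries and 3867, 5002, and 3795 CPM in the day-7 libraries. ND-646 libraries held 13773, 10800, and 13592 CPM and TVB-3166 libraries 14118, 11382, and 14107 CPM. Each of these 6 libraries lay above every other library of the series, and SCD took 1.03% to 1.39% of all counts in them, against 0.394% to 0.522% in day-7 cells. By count SCD ranked second of all genes in the 3 TVB-3166 libraries, from 3 to 6 in ND-646 libraries, from 5 to 10 in day-7 libraries, and from 21 to 105 in day-0 libraries. Relative to day-7 cells SCD rose 3.01-fold in ND-646 cells (log2 fold-change 1.59 ± 0.21, SE of the fit, adjusted p = 0.000919) and 3.14-fold in TVB-3166 cells (1.65 ± 0.13, adjusted p = 3.79e-06).

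The other treated groups held far less SCD. Alisertib libraries ranged from 5647 to 6334 CPM, bleomycin libraries from 4547 to 5686 CPM, palbociclib libraries from 3847 to 5359 CPM, and doxorubicin libraries from 4012 to 4939 CPM. In alisertib cells SCD was 1.44-fold above day-7 cells (log2 0.53 ± 0.11, adjusted p = 0.00925), a call that was lost without day-7 replicate 3 (adjusted p = 0.0522) and with all 24 libraries in the fit (0.161). The bleomycin, doxorubicin, and palbociclib values (log2 0.32, 0.07, and 0.14) did not pass. For bleomycin, where same-numbered libraries deviated together, the adjusted p was 0.0195 with the number as a block and 0.0422 without day-7 replicate 2, against 0.104 without the block. In the order of group means of SCD, alisertib, bleomycin, palbociclib, doxorubicin, and untreated day-7 cells each overlapped the next group, while TVB-3166 and ND-646 cells, which overlapped each other, stood clear above them. SCD was 2.60-fold higher under the lipogenesis inhibitors than under the other 4 inducers (log2 1.38 ± 0.13, adjusted p = 1.9e-08).

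The untreated cells alone spanned a wide range of SCD. Day-7 cells were 2.21-fold above day-0 cells (log2 1.15 ± 0.27, adjusted p = 0.0721) and their libraries did not overlap. Without day-0 replicate 1 the value was 0.85 ± 0.13 with an adjusted p of 0.0241. Against the day-0 cells SCD was higher in all 6 treated groups, from log2 1.19 in doxorubicin cells to 2.79 in TVB-3166 cells, and without day-0 replicate 1 from 0.89 to 2.49, with the 6 calls kept. SCDP1, a processed SCD pseudogene on chromosome 17 that can share reads with SCD, held 0.292 CPM in day-0, 0.329 in day-7, 1.05 in TVB-3166, and 1.18 CPM in ND-646 cells, at most 0.0207% of the SCD count in any library.

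The bases before the SCD and FADS3 starts are shown because their libraries separated the inducer classes without overlap, SCD higher and FADS3 lower under the lipogenesis inhibitors, and because these windows hold no annotated exon. The windows are the 250 bases upstream of the canonical transcript start on GRCh37, chr10:102106740-102106989 on the plus strand for SCD and chr11:61659018-61659267 on the minus strand for FADS3. Capitals mark CCAAT (the NF-Y box), GGGCGG (the GC box bound by Sp factors), and AGCAGATTG (letters of an SREBP-binding element described for mouse Scd genes), each on either strand.
SCD: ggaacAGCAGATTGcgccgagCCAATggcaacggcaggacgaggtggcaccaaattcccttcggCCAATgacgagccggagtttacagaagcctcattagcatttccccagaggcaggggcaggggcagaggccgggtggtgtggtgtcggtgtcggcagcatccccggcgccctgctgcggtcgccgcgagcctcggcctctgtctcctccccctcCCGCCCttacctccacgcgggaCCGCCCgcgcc
FADS3: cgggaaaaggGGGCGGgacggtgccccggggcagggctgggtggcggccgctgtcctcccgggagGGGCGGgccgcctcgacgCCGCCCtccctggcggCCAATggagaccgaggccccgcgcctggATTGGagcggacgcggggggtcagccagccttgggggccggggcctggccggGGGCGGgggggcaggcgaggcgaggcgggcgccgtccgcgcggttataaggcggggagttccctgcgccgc
The SCD window held AGCAGATTG once, 245 bases before the start, which 0.0973% of 19521 protein-coding windows of the same length hold. It also held CCAAT 229 and 186 bases before the start and GGGCGG 33 and 11 bases before it. FADS3 held 2 CCAAT and 4 GGGCGG matches. CCAAT was found in 34.3% of all windows and GGGCGG in 59.5%, and among the 8 genes in 4 (SCD, FADS3, ELOVL1, and ELOVL5) and 7 windows. CACGTG, the E-box, was found in 1 of the 8 windows (ELOVL5) and in 7.87% of all windows. TCACNCCAC, letters of the sterol regulatory element of other SREBP target genes, was found in 0 of the 8 windows and in 0.973% of all. No 2 of the searched letter strings overlapped in the SCD and FADS3 windows, and a match is a description of letters, not of binding.

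FADS2 lies on the plus strand of chromosome 11 (GRCh37, chr11:61560452-61634826, with the canonical transcript from 61595772, NCBI Gene 9415). Its level was 2.75, 17.1, and 7.90 CPM in day-0 and 19.1, 27.5, and 16.6 CPM in day-7 libraries. In ND-646 libraries it was 156, 86.6, and 138 CPM and in TVB-3166 libraries 94.7, 53.4, and 85.3 CPM. Both groups lay above all untreated libraries, and ND-646 libraries lay above those of the other 4 inducers. FADS2 and the neighbouring FEN1 share 49 exonic bases on the same strand, and FEN1 fell in both groups (log2 -1.74 and -1.44). The rise of FADS2 over day-7 cells was 6.0-fold in ND-646 cells (log2 2.59 ± 0.27, adjusted p = 0.000296) and 3.71-fold in TVB-3166 cells (1.89 ± 0.22, adjusted p = 3.7e-05). It kept its call without each library in turn, at log2 2.41 to 2.82 in ND-646 cells and 1.72 to 2.13 in TVB-3166 cells. TVB-3166 cells held less FADS2 than ND-646 cells, 77.8 ± 21.6 against 127 ± 36 CPM, with overlapping libraries. The log2 difference of -0.70 ± 0.27 had an adjusted p of 0.286. Same-numbered libraries of these groups deviated together, and the fit with the replicate number as a block gave 0.0311.

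Alisertib was the inducer outside the lipogenesis inhibitors with the most FADS2, at 51.4, 57.8, and 58.9 CPM. That level was 2.69-fold above day-7 cells (log2 1.43 ± 0.16, adjusted p = 0.000396), and the lowest TVB-3166 library (53.4 CPM) fell within it. Doxorubicin libraries held 25.6, 32.6, and 28.5 CPM and overlapped the day-7 libraries. Their 1.40-fold rise (log2 0.48 ± 0.16, adjusted p = 0.0311) was lost with all 24 libraries in the fit (adjusted p = 0.356), without doxorubicin replicate 2 (0.113) or 3 (0.0697), and without day-7 replicate 1 (0.0900) or 3 (0.155). Palbociclib libraries, at 19.3, 30.3, and 27.3 CPM, did not pass (log2 0.29, adjusted p = 0.244). The adjusted p was 0.0241 without day-7 replicate 2 and 0.0418 with the replicate block. Same-numbered libraries of these groups correlated at 0.0475 to 0.24 in their deviations from group means, and the lowest was under the 0.1 used for pairing. Bleomycin libraries held 18.1, 12.3, and 12.3 CPM. Their log2 change of -0.55 ± 0.22 had an adjusted p of 0.0637, which was 0.0163 without bleomycin replicate 1, 0.0477 without day-7 replicate 3, and 0.0329 with DESeq2. The lipogenesis inhibitors were 3.59-fold above the other 4 inducers (log2 1.84 ± 0.21, adjusted p = 3.26e-07), with overlap because of alisertib.

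FADS2 and SCD varied together, at unequal rates. Over the 24 libraries, which fall into 8 groups and share those groups' differences, Pearson's r of their log2 CPM was 0.914. The log2 ratio of SCD to FADS2 counts within a library was 7.50 to 7.83 in day-7 cells, 6.46 to 6.96 in ND-646 cells, 6.69 to 6.78 in alisertib cells, and 8.21 to 8.85 in bleomycin cells. The ND-646, alisertib, and doxorubicin ratios lay below and the bleomycin ratios above every day-7 ratio. Each of these had p = 0.1 in a 2-sided exact permutation test, the smallest that 3 against 3 libraries allow, and 0.189 after adjustment over 36 ratio tests, so none could pass. TVB-3166 ratios (7.22 to 7.74) overlapped the day-7 ratios.

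**Figure D4:**
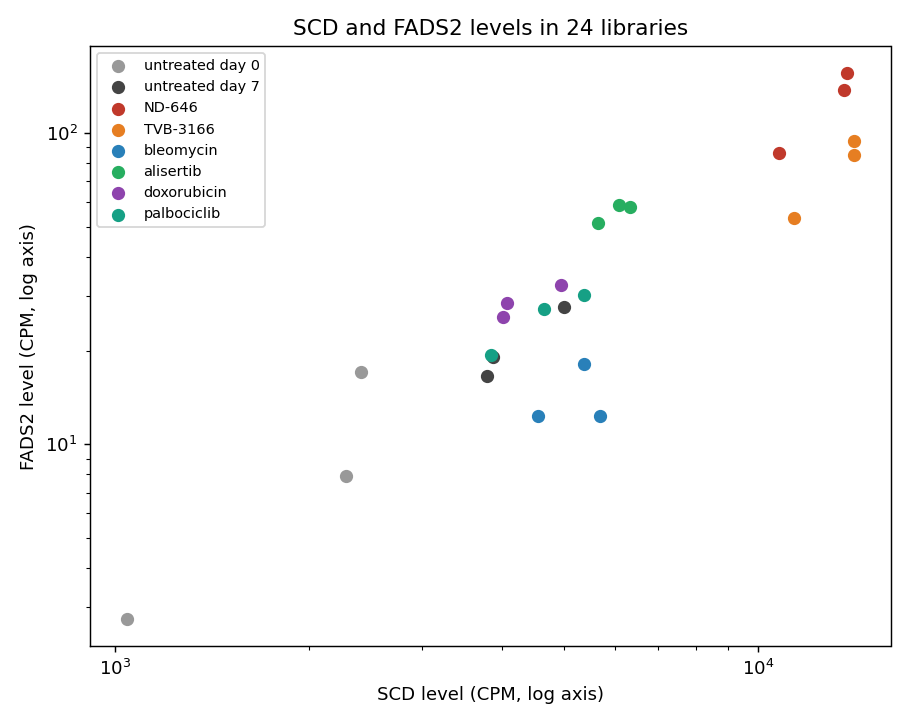
SCD against FADS2 level in CPM in each of 24 libraries (both axes log). ND-646 and TVB-3166 libraries lie at the upper right, bleomycin libraries (12.3 to 18.1 CPM of FADS2) lie below day-7 libraries of like SCD level, and day-0 replicate 1 lies at the lower left.

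FADS1 lies on the minus strand of the same locus (GRCh37, chr11:61567099-61596790, NCBI Gene 3992) and shares 490 exonic bases with FADS2, on the opposite strand. Whether the counting used strand is not given in the sources used here, and without it reads from the shared bases cannot be told apart. FADS1 was the scarcest of the 8 genes, with 0.483, 2.43, and 1.07 CPM in day-0 libraries and 2.31, 5.18, and 3.27 CPM in day-7 libraries. ND-646 libraries held 3.83, 3.36, and 6.21 CPM and TVB-3166 libraries 3.31, 2.97, and 4.31 CPM, which overlapped the day-7 libraries. Neither group differed from day-7 cells by the test (log2 0.32 ± 0.36 and -0.01 ± 0.28, adjusted p = 0.518 and 0.983), where FADS2 rose several-fold. The log2 ratio of FADS2 to FADS1 counts was 2.35 to 3.05 in day-7 cells, 4.47 to 5.35 in ND-646 cells, and 4.17 to 4.84 in TVB-3166 cells. It was 3.71 to 3.86 in alisertib and 3.80 to 4.73 in palbociclib cells, and these 4 groups did not overlap the day-7 cells (exact permutation p = 0.1 each, adjusted 0.189).

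Palbociclib cells stood apart in FADS1, at 1.39, 1.14, and 1.55 CPM. All of these lay below every day-7 library and below every library of the other 5 treated groups. FADS1 fell by 1.37 ± 0.30 on the log2 scale relative to day-7 cells (adjusted p = 0.0038), and the value ranged from -1.61 to -1.01 with each library left out in turn, with the call kept. Its 3 palbociclib libraries rest on 48, 36, and 52 counts. Relative to day-0 cells FADS1 was higher in ND-646 (log2 1.76, adjusted p = 0.0276), TVB-3166 (1.44, 0.0158), alisertib (1.63, 0.0136), and doxorubicin cells (1.54, 0.0161). Without day-0 replicate 1 the ND-646 value was 1.35 (adjusted p = 0.0644) and the other 3 kept their call. Without day-0 replicate 2, which held the most FADS1 and FADS2 of the day-0 libraries, the FADS1 values were 2.52, 2.20, 2.41, and 2.31 in these 4 groups, over 1.5 times the fold above. The FADS2 values against day-0 cells moved likewise, from 3.77 to 4.56 in ND-646 and from 3.10 to 3.89 in TVB-3166 cells, and without day-0 replicate 1 they were 3.33 and 2.65. The ND-646 call of FADS1 was also lost without ND-646 replicate 3 or day-0 replicate 3, and the TVB-3166 call without TVB-3166 replicate 3 or day-0 replicate 3.

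FADS3, the neighbour of FADS2 on the minus strand (GRCh37, chr11:61640991-61659523, NCBI Gene 3995), was higher in the groups where SCD was lower when the inducer classes were compared. Its level was 9.79, 10.3, and 9.77 CPM in day-0 and 9.60, 11.4, and 12.4 CPM in day-7 libraries. Bleomycin libraries held 23.6, 21.4, and 36.1 CPM, alisertib libraries 19.5, 22.6, and 22.95 CPM, doxorubicin libraries 23.04, 19.5, and 24.2 CPM, and palbociclib libraries 20.9, 19.4, and 22.2 CPM. All 12 lay above all 6 untreated libraries and above all 6 libraries of the lipogenesis inhibitors. Relative to day-7 cells the rise was 2.46-fold for bleomycin (log2 1.30 ± 0.20, adjusted p = 0.00108), 1.97-fold for alisertib (0.98 ± 0.12, adjusted p = 0.000805), 2.04-fold for doxorubicin (1.03 ± 0.13, adjusted p = 7.75e-05), and 1.89-fold for palbociclib (0.92 ± 0.12, adjusted p = 0.000164). The adjusted p of these 4 stayed under 0.05 in every alternative fit, each library left out included, while the alisertib and palbociclib changes are under the study's minimum of 2-fold.

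In ND-646 libraries FADS3 was 16.4, 10.7, and 16.8 CPM and in TVB-3166 libraries 10.7, 11.96, and 12.5 CPM. Neither passed the test against day-7 cells (log2 0.39 ± 0.21 and 0.08 ± 0.14, adjusted p = 0.183 and 0.628). Relative to day-0 cells ND-646 libraries lay clear of the reference at log2 0.55 ± 0.21 with an adjusted p of 0.0638, which passed with DESeq2 (0.0491), with all 24 libraries in the fit (0.0102), and without ND-646 replicate 2 (0.0245). The difference between both lipogenesis inhibitors and the other 4 inducers was -0.80 ± 0.11 on the log2 scale (adjusted p = 3.55e-06). Over the 24 libraries FADS3 was nearly unrelated to SCD and FADS2, with r of 0.0742 and 0.0559.

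Of the elongases, ELOVL5 (GRCh37, chr6:53132196-53213977, minus strand, NCBI Gene 60481) followed SCD and FADS2. Day-0 libraries held 285, 246, and 278 CPM and day-7 libraries 262, 293, and 269 CPM. ND-646 libraries held 370.2, 399, and 409.5 CPM and TVB-3166 libraries 357, 330.0, and 352 CPM, all above every other library. ELOVL5 was 1.43-fold above day-7 cells in ND-646 cells (log2 0.52 ± 0.12, adjusted p = 0.0132) and 1.27-fold in TVB-3166 cells (0.34 ± 0.08, adjusted p = 0.00395). The ND-646 call was lost without day-7 replicate 1 (adjusted p = 0.0671) or day-7 replicate 3 (0.0835), and against day-0 cells without ND-646 replicate 2 or 3 or day-0 replicate 2 or 3. The difference from the other 4 inducers was 1.32-fold (log2 0.40 ± 0.05, adjusted p = 9.88e-07). Bleomycin libraries, at 265, 226, and 231 CPM, had the lowest mean and overlapped both untreated groups, and their log2 value against day-7 cells, -0.17, passed without bleomycin replicate 1 (-0.27, adjusted p = 0.0483).

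ELOVL6 (GRCh37, chr4:110967002-111120355, minus strand, NCBI Gene 79071), which lengthens the product of FASN, was measured at 87.9, 105, and 114 CPM in day-0 and 117, 124, and 117 CPM in day-7 libraries. ND-646 libraries held 112, 105, and 132 CPM and TVB-3166 libraries 146, 109, and 138 CPM, and neither passed against day-7 cells (log2 -0.03 ± 0.13 and 0.15 ± 0.10) except TVB-3166 cells without TVB-3166 replicate 2 (0.26, adjusted p = 0.0280). In bleomycin libraries the level was 66.0, 41.2, and 72.0 CPM, below every other library. ELOVL6 fell by 0.98 ± 0.17 on the log2 scale relative to day-7 cells (adjusted p = 0.00202) and by 0.77 ± 0.19 relative to day-0 cells (adjusted p = 0.0082). The day-7 difference ranged from -1.14 to -0.77 with each library left out, with the call kept. Alisertib libraries, at 136, 125, and 150.4 CPM, lay above every day-7 library (log2 0.22 ± 0.08, adjusted p = 0.0773). They passed with the replicate number as a block (0.0424), and same-numbered libraries of these groups deviated together. Relative to day-0 cells ELOVL6 rose in TVB-3166 cells (log2 0.36 ± 0.13, adjusted p = 0.0342), with overlapping libraries, and in alisertib cells (0.42 ± 0.11, 0.0151). The TVB-3166 call was lost with all 24 libraries in the fit (0.0619). It was also lost without TVB-3166 replicate 1 or 3 or day-0 replicate 1 or 2 (0.0667 to 0.133). Without alisertib replicate 3 the alisertib call was lost (0.0765). The higher level under the lipogenesis inhibitors than under the other 4 inducers (log2 0.28 ± 0.10, adjusted p = 0.0196) was lost without ND-646 replicate 3 (0.0669), TVB-3166 replicate 1 (0.0689), or TVB-3166 replicate 3 (0.0502). Within libraries the log2 ratio of ELOVL6 to ELOVL5 counts was -1.25 to -1.17 in day-7 cells, -1.93 to -1.63 in ND-646 cells, -1.60 to -1.29 in TVB-3166 cells, -2.46 to -1.68 in bleomycin cells, and -1.44 to -1.27 in palbociclib cells, each without overlap with day-7 cells (exact permutation p = 0.1, adjusted 0.189).

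ELOVL1 (GRCh37, chr1:43829069-43833745, minus strand, NCBI Gene 64834) varied least. Its group means ran from 160 ± 12 CPM in bleomycin to 206 ± 10 CPM in day-0 cells, and each group overlapped the next in the order of means. None of the 6 treated groups passed against day-7 cells, with log2 values from -0.09 to 0.13. Relative to day-0 cells it fell in bleomycin (log2 -0.36 ± 0.10, adjusted p = 0.0127), doxorubicin (-0.28 ± 0.08, 0.0171), and palbociclib cells (-0.23 ± 0.08, 0.0367). The palbociclib call was lost without any single one of the 6 libraries and the doxorubicin call without doxorubicin replicate 1 or 3.

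ELOVL7 (GRCh37, chr5:60047618-60140101, minus strand, NCBI Gene 79993) was low in all groups. Day-0 libraries held 8.09, 8.25, and 10.1 CPM, day-7 libraries 10.8, 12.98, and 11.8 CPM, and ND-646 libraries 15.01, 13.8, and 15.6 CPM. ND-646 libraries lay clear of the day-7 libraries, at log2 0.32 ± 0.15 with an adjusted p of 0.126. Relative to day-0 cells ELOVL7 rose 1.67-fold in ND-646 (adjusted p = 0.00954), 1.40-fold in TVB-3166 (0.0147), and 1.35-fold in alisertib cells (0.0292). Each was lost in at least 1 fit with a library left out: ND-646 without day-0 replicate 2 (adjusted p = 0.0521), TVB-3166 without TVB-3166 replicate 2 (0.0529) or day-0 replicate 2 (0.0543), and alisertib without any alisertib library, day-0 replicate 1, or day-0 replicate 2 (0.0539 to 0.0827). The 1.18-fold difference between inhibitor classes (adjusted p = 0.0482) was lost in 13 of the 18 fits that left out 1 library. That call was also lost with RLE in place of TMM (0.0506) and without the filter (0.0563). Requiring 10 counts or more in all libraries (0.0510) or fitting the 18 treated libraries alone (0.0548) lost it too.

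**Figure D5:**
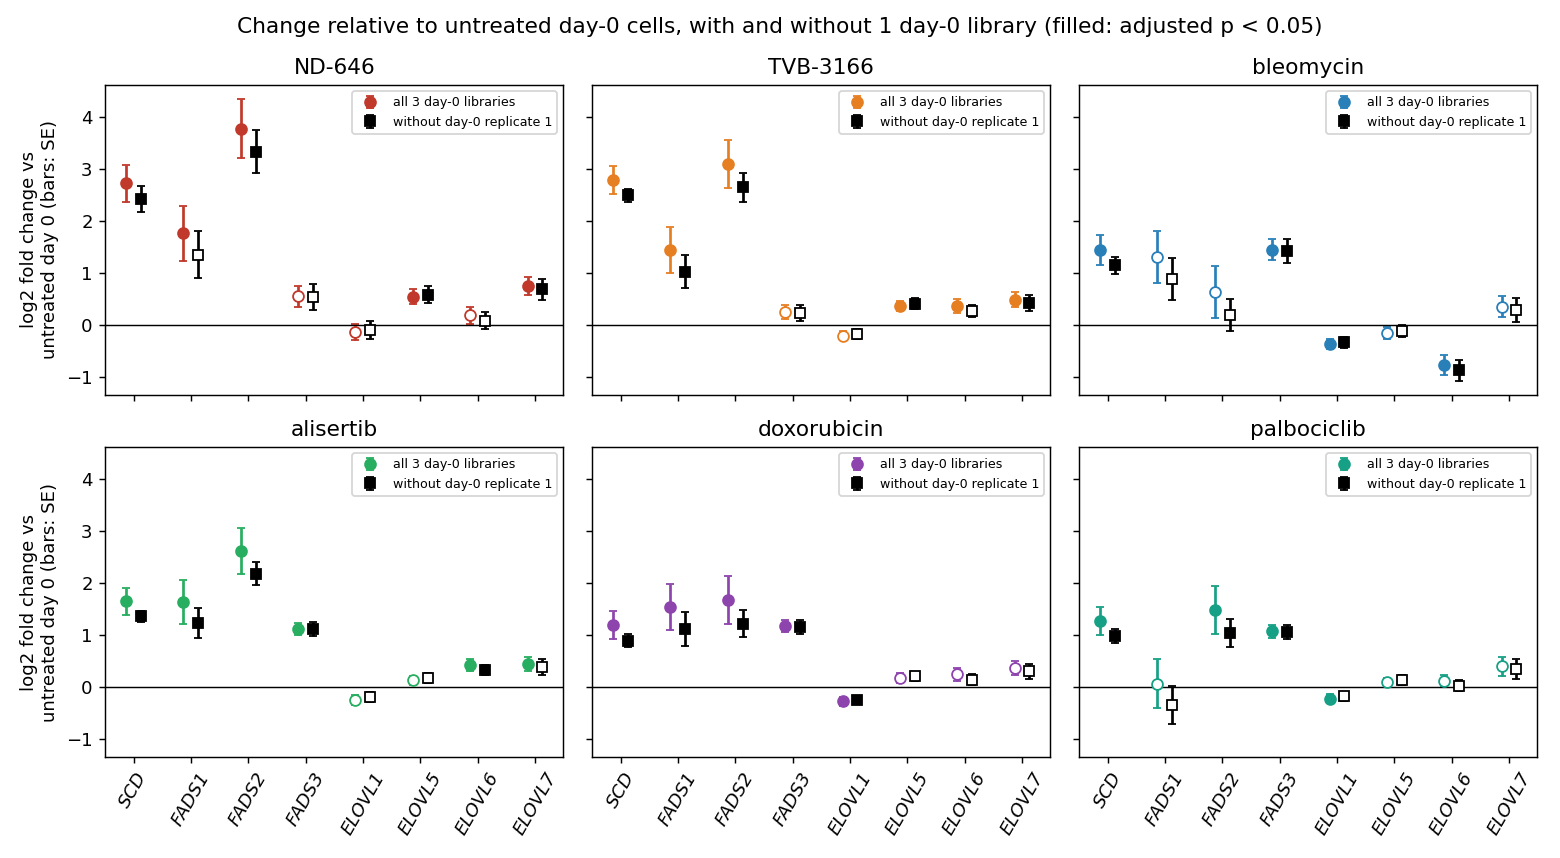
Log2 fold-change of each gene relative to untreated day-0 cells in the 6 treated groups, with all 3 day-0 libraries (circles) and without day-0 replicate 1 (squares). Bars are the SE and filled symbols passed an adjusted p-value of 0.05. SCD, FADS1, and FADS2 values drop without that library, and FADS3 values stay nearly in place. Calls are lost for FADS1 in ND-646, ELOVL6 in TVB-3166, ELOVL7 in alisertib, and ELOVL1 in palbociclib cells.

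Genes that act with these enzymes were counted by list. Of 9 genes of palmitate supply, 3 rose and 1 fell in ND-646 cells relative to day-7 cells, and 6 rose and 2 fell in TVB-3166 cells, with median log2 fold-changes of 0.40 and 0.57 against 0.02 and 0.00 over all genes. Of all genes tested, 17.2% rose and 17.1% fell in ND-646 cells, and 25.4% rose and 26.1% fell in TVB-3166 cells. FASN rose from 5806 CPM in day-7 cells by log2 1.41 ± 0.20 with ND-646 and 1.30 ± 0.13 with TVB-3166, and ACSS2, which makes acetyl-CoA from acetate, by 1.73 ± 0.24 and 2.19 ± 0.18. ACACB, the ACC isoform tied to fat oxidation, fell by 2.97 ± 0.28 and 1.41 ± 0.10. Mean ACACB was 63.3 CPM in day-7, 23.7 in TVB-3166, 13.5 in bleomycin, 26.95 in palbociclib, 39.4 in doxorubicin, and 54.0 CPM in alisertib cells. Mean FASN was 9264 CPM in alisertib, 7719.5 in palbociclib, 6317 in doxorubicin, and 5820 CPM in bleomycin cells. Mean ACSS2 was 90.4 CPM in day-7, 124 in alisertib, 121 in bleomycin, 97.8 in palbociclib, and 96.0 CPM in doxorubicin cells. Of 14 SREBP and LXR regulators, 7 rose and 1 fell in ND-646 cells, and 8 rose and 1 fell in TVB-3166 cells. SREBF1, which encodes SREBP-1, rose by 1.36 ± 0.18 and 1.16 ± 0.12, INSIG1, the SREBP retention factor that is itself an SREBP target, by 1.82 ± 0.27 and 1.92 ± 0.15, and MID1IP1, an activator of ACC, by 2.03 ± 0.13 and 1.51 ± 0.08. In alisertib cells SREBF1 rose by 0.31 ± 0.09 and INSIG1 by 0.63 ± 0.08. SREBF1 fell by 0.45 ± 0.12 in bleomycin cells, and INSIG1 fell by 0.41 ± 0.09 in palbociclib cells. Neither gene passed in doxorubicin cells (-0.00 ± 0.10 and 0.21 ± 0.09), nor INSIG1 in bleomycin (-0.00 ± 0.13) or SREBF1 in palbociclib cells (0.21 ± 0.10).

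The partners of elongation and the electron donors did not move as 1 group. Of the 10 that were tested, 1 rose and 2 fell in ND-646 cells and 3 rose and 4 fell in TVB-3166 cells relative to day-7 cells. The shares of all genes that rose and fell were 17.2% and 17.1% in ND-646 cells and 25.4% and 26.1% in TVB-3166 cells. HACD3, a dehydratase of the elongation cycle, fell by 0.62 ± 0.12 and 0.45 ± 0.07 on the log2 scale, and the electron donor CYB5B fell by 0.47 ± 0.13 and 0.45 ± 0.09. HACD2, another dehydratase of that step, named after its values were seen, rose by 0.82 ± 0.12 and 0.39 ± 0.08. Among 14 enzymes that use the products, 7 rose and 2 fell in ND-646 cells and 5 rose and 2 fell in TVB-3166 cells. LPCAT3, which places polyunsaturated chains in phospholipids, rose by 1.19 ± 0.18 and 1.05 ± 0.12 on the log2 scale, and by 0.28 ± 0.08 and 0.26 ± 0.09 in alisertib and palbociclib cells. In the bleomycin and doxorubicin cells the values were 0.08 ± 0.12 and -0.01 ± 0.10. LPCAT3 did not change most in this list. In ND-646 against all day-0 libraries, ACSL5 (log2 2.61 ± 0.18) and ACSL1 (1.67 ± 0.16) rose more than LPCAT3 (1.47 ± 0.19). Of 6 genes of proliferation and arrest, 1 rose and 5 fell in each of ND-646, TVB-3166, bleomycin, and palbociclib cells relative to day-7 cells, 1 rose and 4 fell in doxorubicin cells, and 0 rose and 3 fell in alisertib cells. The shares of all genes that rose and fell were 22.4% and 23.2% in bleomycin cells and 22.0% and 22.9% in palbociclib cells. In doxorubicin cells they were 21.9% and 21.5%, and in alisertib cells 9.55% and 9.49%.

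By likeness of log2 CPM over 24 libraries among 9569 genes with a mean of at least 3, the genes most like SCD were ABHD11 (r = 0.958), SEPTIN10 (0.948), and CPVL (0.946). Those most like FADS2 were TMEM135 (0.924), CERCAM (0.922), and SREBF1 (0.919), and those most like ELOVL5 were ALCAM (0.934), CERS6 (0.895), and RNF13 (0.874). FADS3 was most like EDN1 (0.898), MCAM (0.883), and RNF114 (0.857), ELOVL6 most like FKBP9 (0.902), NVL (0.860), and MYO5C (0.858), and ELOVL1 most like LRPAP1 (0.897), SDF4 (0.885), and UBXN8 (0.876). FADS1 (IL17REL, ZC3H10, and SYT17, 0.762 to 0.777) and ELOVL7 (SYT17, SELENOF, and DYNLT3, 0.720 to 0.802) had weaker nearest genes. The libraries share 8 groups, so these values describe the groups' pattern and carry no p-value.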

How the data were processed

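RNA from 24 SKBR3 libraries in 8 groups of 3 was sequenced. Per the labels and the methods, the authors aligned reads to GRCh37 with HISAT2 and used StringTie and DESeq2. The deposited values are raw counts of reads, 1 row for each gene, without normalization. Counting settings and the use of strand are not given in the sources used here, and the kit is named as mRNA in the labels and as total RNA in the methods. The lowest count in the table is 1, so genes without reads in a library are not listed.

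Groups came from the labels. Each comparison of 2 groups was fitted in edgeR 4.0.16 (R 4.3.3) with its own libraries (glmQLFit, glmQLFTest, 2-sided, filterByExpr, TMM), and called at a Benjamini-Hochberg adjusted p under 0.05 over all genes tested. The test of the lipogenesis inhibitors against the other 4 inducers was run in the same way with all 24 libraries in the fit. Fold-changes are on the log2 scale with the SE from the fit, and levels are TMM-scaled CPM, with a prior count of 2 for log2 CPM. Levels per kb used the canonical transcript of GENCODE on GRCh37. Scripts were tested on simulated data. Counting error is small at 29405121 to 44316330 counts for all but FADS1, and the spread of 3 libraries sets the precision.

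The members and lists were chosen with earlier results of these data known. All 8 members are named, and list genes are at most 4 a list with the largest change among those called in ND-646 against day-0 cells, except where a gene is said to be chosen after its values were seen. Same-numbered libraries deviated together (3 of 3 correlations over 0.1) for TVB-3166 and ND-646 (0.213 to 0.380), bleomycin and day-7 (0.107 to 0.142), and alisertib and day-7 cells (0.105 to 0.218), and there blocked values are given where a call changed. No source says what the numbers mark. Alternatives were DESeq2 1.42.0, RLE in place of TMM, dropping the filter, requiring 10 counts or more in all libraries of a fit, a fold-change of at least 2 with a raw p under 0.05, the replicate block, other libraries in the fit, and leaving out each library. Leaving out each library for the ratios was added after seeing the data. Promoter bases were read from the GRCh37 genome.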

Additional observations from a re-analysis of the deposited data

How the results depend on the processing

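Of 1656 recomputed log2 fold-changes of the 8 genes, 1523 kept their direction and side of the threshold, 87 lost their call, 46 gained one, and 0 reversed. Of 207 recomputed counts of called genes, 183 stayed within 1.5 times the reported count. The cause of the changes below was not tested. With the study's rule (fold-change of at least 2 and raw p under 0.05), which drops calls of small size by its construction, the count was 3 for ND-646 and 3 for TVB-3166 against day-0 cells (reported 5 and 6), 3 between the untreated groups (0), 1 each for bleomycin (2), alisertib (3), doxorubicin (2), and palbociclib (2) against day-7 cells, and 2 for lipogenesis inhibitors against the other 4 inducers (6). The study applied its rule against day-0 cells. Between the untreated groups the count was 2 with DESeq2, 3 with the replicate block, and 2 with all 24 libraries in the fit. For doxorubicin against day-7 cells it was 1 with all 24 libraries in the fit, and for TVB-3166 against ND-646 it was 1 (FADS2) with the replicate block.

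With each library left out in turn, the count against day-0 cells ranged from 3 to 5 for ND-646, 4 to 5 for TVB-3166, 4 to 6 for bleomycin, alisertib, and doxorubicin, 2 to 3 for palbociclib, and 0 to 1 for untreated day-7 cells. The count of 3 for ND-646 came without ND-646 replicate 3, day-0 replicate 2, or day-0 replicate 3, that of 2 for palbociclib without palbociclib replicate 3 or day-0 replicate 3, and that of 1 for untreated cells without day-0 replicate 1. Against day-7 cells it ranged from 2 to 3 for ND-646, alisertib, and palbociclib, 3 to 4 for TVB-3166, 2 to 4 for bleomycin (4 without bleomycin replicate 1), and 1 to 2 for doxorubicin. It was 0 throughout for TVB-3166 against ND-646 and ranged from 4 to 7 between inhibitor classes. FADS2 in palbociclib against day-0 cells lost its call with DESeq2 (adjusted p = 0.0759) and without palbociclib replicate 2 or 3 or day-0 replicate 3 (0.0517 to 0.0578).

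The other 11 comparisons of 2 groups were not read as paired, since at least 1 of the 3 correlations of same-numbered libraries was at or under 0.1. That limit does not exclude pairing, and in 4 of the 11 all 6 libraries correlated best with their own number. Between the treated groups, 41 of 45 correlations of same-numbered libraries were over 0.1 (range -0.255 to 0.630). The block added FADS1 for bleomycin (adjusted p = 0.0262), ELOVL1 for alisertib (0.0320), and ELOVL6 and ELOVL7 for doxorubicin (0.0292 and 0.0354) against day-0 cells, FADS2 for palbociclib against day-7 cells (0.0418), and SCD, FADS1, and FADS2 between the untreated groups (0.00316, 0.00679, and 0.0142). Beside these and the paired values given with the results, the block changed no call. Low counts limit FADS1, which had 19 to 189 counts a library.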

Other observations

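Among the other desaturases and elongases of the table, DEGS1, DEGS2, and ELOVL4, DEGS1 fell in 5 of 6 treated groups relative to day-7 cells. DEGS1 makes ceramide by desaturating dihydroceramide, and its mean was 389 CPM in day-7, 214 under ND-646, 225 under bleomycin, 237 under TVB-3166, 306 under palbociclib, 321 under doxorubicin, and 347 CPM under alisertib. The log2 fold-changes were -0.86 ± 0.12 with ND-646 and -0.71 ± 0.08 with TVB-3166, where SCD and FADS2 rose, and -0.78 ± 0.22 in bleomycin cells (edgeR adjusted p = 0.00101, 3.26e-05, and 0.0167, 3 libraries a group). In alisertib cells the value was -0.15 ± 0.07 (adjusted p = 0.152). DEGS2, which also makes phytoceramide, fell in bleomycin (log2 -1.27 ± 0.21) and doxorubicin cells (-0.67 ± 0.17). ELOVL4, which makes very long chains, fell in TVB-3166 cells (-0.31 ± 0.11, adjusted p = 0.0316) and was chosen here after its values were seen. SCD5, FADS6, ELOVL2, and ELOVL3 were not listed in the table.

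Of 5 genes next to the FADS cluster, 4 fell in palbociclib cells relative to day-7 cells, where FADS1 fell too. Of all genes tested there, 22.9% fell. RAB3IL1 fell by 1.33 ± 0.15, MYRF by 1.16 ± 0.15, FEN1 by 0.91 ± 0.10, and TMEM258, chosen after its values were seen, by 0.54 ± 0.11 on the log2 scale. In the same libraries FADS2, which lies among them, had a log2 value of 0.29 ± 0.19 and FADS3 rose by 0.92 ± 0.12. Of the same 5 genes, 3 fell in doxorubicin cells and 2 in each of ND-646, TVB-3166, bleomycin, and alisertib cells. The shares of all genes that fell there were 21.5%, 17.1%, 26.1%, 23.2%, and 9.49%. FADS1 was not called against day-7 cells in any of these groups. BEST1, a chloride channel gene, rose from 0.924 CPM in day-7 to 14.2 CPM in ND-646 and 8.03 CPM in TVB-3166 cells (log2 3.93 ± 0.23 and 3.11 ± 0.24), and also in bleomycin, doxorubicin, and alisertib cells.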
